A study of Rattus norvegicus with 12 samples.

Results

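The proteasome genes of the rat liver were examined across 3 diets. Members were the probe sets that the platform annotation gives exactly 1 gene symbol beginning with Psma to Psmg and a number, with 1 probe set per symbol, and there were 34 among 13327 probe sets with 1 symbol and 19418 probe sets in all. Liver RNA came from 12 Sprague Dawley rats, 1 array per rat: 4 ate NO-naproxen in the diet at 550 mg/kg, 4 ate naproxen at 400 mg/kg and 4 ate control diet, each for 7 days. Naproxen blocks both cyclooxygenases, the enzymes that start prostaglandin synthesis, and NO-naproxen is a naproxen derivative with a nitric oxide-donating group. All rats were housed singly with free access to food and water, and no genetic change is given in the labels. The labels give neither age nor sex. The 2 doses differ in mg/kg, so values of the 2 drugs are given side by side. Their contrast compares diets, not the drugs at a matched dose in mg/kg, and molar doses were not compared.

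The proteasome is the protease complex that degrades proteins tagged with ubiquitin. Its barrel-shaped core particle is built of alpha subunits (Psma genes), which form the gated outer rings, and beta subunits (Psmb genes), which form the inner rings and carry the catalytic sites. A regulatory particle caps the core: its ATPases (Psmc genes) unfold substrates, and its other subunits (Psmd genes) recognise ubiquitin and hold the particle together. In immune cells, and in hepatocytes exposed to interferon, Psmb8, Psmb9 and Psmb10 take the places of the catalytic subunits Psmb5, Psmb6 and Psmb7 to form the immunoproteasome, which supplies peptides to MHC class I molecules. Activators of the Psme family are other caps of the core particle. In mammals many proteasome genes are known targets of the transcription factor Nfe2l1.

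The members comprised 6 alpha subunits, 6 beta subunits of the constitutive core, 2 immunoproteasome subunits (Psmb8 and Psmb9), 5 regulatory ATPases, 8 Psmd genes, 2 activators (Psme3 and Psme4), the inhibitor Psmf1, and Psmb11, the catalytic subunit of the thymus form. Another 3 symbols match the pattern without being subunits: the pseudogene Psma2-ps2, the recombination cofactor Psmc3ip, and Psme3ip1, named for binding Psme3. Among the Psmd genes, Psmd9 encodes a chaperone of regulatory particle assembly. These are incomplete sets: Psma3, Psmb6, Psmb10, Psmc6, several Psmd genes, Psme1 and Psme2 were not analysed here. Each symbol had 1 probe set. On the scale used throughout, log2 of the intensity plus 16, 32 of the 34 members had a mean above 6.44, the 95th percentile of 970 olfactory and vomeronasal receptor probe sets. The 2 others were Psmb11, at 5.88, and Psma2-ps2, at 4.25. The 25 core and regulatory subunits had means between 8.42 and 11.26.

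Hepatocyte markers were bright, and of the 10 measured the dimmest by mean was Hnf4a at 11.71. The arrays differed in spread, with an interquartile range of 2.36 ± 0.23 log2 units with NO-naproxen, 2.34 ± 0.16 with naproxen and 2.10 ± 0.19 in controls (SD, n = 4 each). Bright probe sets lay higher and dim ones lower in both drug groups. All probe sets were split into 10 bins of rising mean level. The median log2 fold change against control in bin 9 was 0.22 for NO-naproxen and 0.15 for naproxen, and in bin 3 it was -0.15 and -0.21. In bin 10, which held 18 of the 25 core and regulatory subunits, it was 0.14 and 0.077. Since 24 of the 25 core and regulatory subunits lay in bins 9 and 10, the main counts below are set beside all probe sets and beside the 3670 probe sets whose means lay in the same range of 8.42 to 11.26, called the level range. Both drug groups are compared with the same 4 controls. In these whole-liver samples a change in the number of cells of a type and a change in RNA per cell cannot be told apart.

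The sequences just upstream of 4 genes are shown because they cover the subunit with the largest fold change (Psmd11), an ATPase (Psmc1), a scaffold subunit of the regulatory particle whose control and drug arrays did not overlap (Psmd1), and an immunoproteasome subunit for contrast (Psmb8). Each is the 250 bases before the annotated start in RefSeq's GRCr8 assembly, in the direction of transcription, with capitals marking matches on either strand to the motifs named after the sequences. Psmd11 lies at chr10:65932093-65932342 on the plus strand, Psmc1 at chr6:125122247-125122496 on the plus strand, Psmd1 at chr9:94157721-94157970 on the plus strand and Psmb8 at chr20:4657032-4657281 on the minus strand.
Psmd11: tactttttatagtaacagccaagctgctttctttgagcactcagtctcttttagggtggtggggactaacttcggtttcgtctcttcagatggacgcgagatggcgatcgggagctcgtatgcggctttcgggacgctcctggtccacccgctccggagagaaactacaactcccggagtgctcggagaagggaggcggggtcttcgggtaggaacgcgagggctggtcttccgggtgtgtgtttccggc
Psmc1: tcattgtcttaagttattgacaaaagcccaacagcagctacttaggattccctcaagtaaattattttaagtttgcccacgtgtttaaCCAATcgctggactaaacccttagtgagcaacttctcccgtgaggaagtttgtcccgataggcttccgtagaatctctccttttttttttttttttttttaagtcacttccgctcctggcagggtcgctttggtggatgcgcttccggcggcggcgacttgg
Psmd1: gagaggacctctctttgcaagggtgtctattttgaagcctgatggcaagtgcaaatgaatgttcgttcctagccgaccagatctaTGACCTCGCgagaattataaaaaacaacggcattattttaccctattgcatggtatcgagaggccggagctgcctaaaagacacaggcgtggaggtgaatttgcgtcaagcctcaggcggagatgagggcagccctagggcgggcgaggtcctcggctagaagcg
Psmb8: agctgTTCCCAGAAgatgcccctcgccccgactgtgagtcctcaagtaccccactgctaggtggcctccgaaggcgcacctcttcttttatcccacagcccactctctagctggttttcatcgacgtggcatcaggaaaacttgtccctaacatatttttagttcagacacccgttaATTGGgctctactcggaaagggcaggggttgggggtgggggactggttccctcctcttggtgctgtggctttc

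RefSeq promoters were found for 29 of the 34 members, 22 of them core or regulatory subunits. The core of the antioxidant response element, TGACNNNGC, which Nfe2l1 and Nfe2l2 are known to bind, matched in 5 of the 29 (17.2%), against 10.2% of 27457 promoters of the same length. These were Psmb2, Psmb5, Psmd1, Psmd9 and Psme4. The CCAAT box, CCAAT or ATTGG on the other strand, matched in 17 of 29 (58.6%), against 34.3% of all. In Psmb2 the CCAAT box and the response element shared bases. A pair of GAAA sites with 2 bases between them, a core of the interferon-stimulated response element, matched in 2 of 29 (6.9%), Psma4 and Psmb3, against 3.29%, and the STAT motif TTCNNNGAA in 2 of 29 (6.9%), Psmb8 and Psmd3, against 7.52%. Of the 4 sequences shown, Psmd11 held none of these motifs, Psmc1 a CCAAT box, Psmd1 a response element core, and Psmb8 a STAT motif and a CCAAT box. A match describes letters in this window and was not tested as a binding site.

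The first comparison asks how proteasome genes differed between livers of rats fed NO-naproxen and controls. The 13 regulatory particle genes all had a log2 fold change above 0 (11 of 13 after quantile normalization), with a median of 0.30 and a range of 0.096 to 0.67. The 12 genes of the constitutive core had a median of 0.21, with 11 above 0. Psmb8 and Psmb9 had log2 fold changes of 0.032 and 0.14. No member passed limma's test after Benjamini-Hochberg adjustment over all 19418 probe sets, as was so for 0% of all probe sets, and the smallest adjusted p among members was 0.468. At an unadjusted p under 0.05, 7 of 34 members were higher (20.6%), against 5.49% of all probe sets and 10.1% of those in the same level range. None was lower, against 4.86% of all and 0.708% in that level range. Without NO-naproxen replicate 2 the count was 1, against 1.63% of all probe sets and 2.32% of the level range. Without NO-naproxen replicate 1 it was 4, against 2.58% and 4.28%, and without NO-naproxen replicate 3 it was 5, against 9.99% and 19.9%. It was 3 without control replicate 2, against 9.6% and 21%, and 3 without control replicate 3, against 3.22% and 4.82%. Without control replicate 4 it was 2, against 2.2% and 2.89%. With the spread of the arrays as a covariate it was 3 (8.82%), against 2.32% of all probe sets and 1.77% of the level range. Without control replicates 3 and 4, the 2 arrays of narrowest spread, it was 0, against 1.26% and 0.926%.

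Psmd11, a lid subunit that joins the regulatory particle to the core, had the largest fold change of the members. It measured 9.37, 9.66, 9.02 and 8.75 on the log2 scale in the 4 NO-naproxen livers, 8.86, 9.08, 8.77 and 9.14 in the 4 naproxen livers, and 8.87, 8.55, 8.34 and 8.38 in the 4 control livers. Control replicates 2, 3 and 4 lay below every array of both drug groups, while control replicate 1 overlapped both. The means were 9.20 ± 0.40 with NO-naproxen against 8.54 ± 0.24 in controls (SD, n = 4). The log2 fold change was 0.67 ± 0.20 (SE), or 1.59-fold, with limma's unadjusted p = 0.00491 and adjusted p = 0.468. It was the 1 member past the study's criterion of an unadjusted p under 0.05 with at least a 1.5-fold change, which 1.78% of all probe sets and 3% of those in the level range met on the higher side. On the lower side no member met it, against 2.02% and 0.272%. Without NO-naproxen replicate 2 its log2 fold change was 0.51, and after quantile normalization 0.49.

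Among the ATPases, which form the ring that threads substrates into the core, Psmc1, Psmc2 and Psmc5 passed an unadjusted p of 0.05. Psmc1 measured 10.30, 10.49, 10.10 and 10.21 with NO-naproxen against 10.16, 9.90, 9.56 and 9.75 in controls. Psmc2 measured 9.48, 9.86, 9.43 and 9.22 with NO-naproxen against 9.25, 8.95, 8.91 and 8.93 in controls. Each comparison had 1 control array, replicate 1, inside the range of the NO-naproxen arrays. The log2 fold changes were 0.43 ± 0.17 for Psmc1 and 0.48 ± 0.19 for Psmc2 (SE, adjusted p = 0.468 for both in limma). Psmc5 measured 8.71, 8.97, 8.90 and 8.51 with NO-naproxen against 8.61, 8.09, 8.45 and 8.37 in controls, and its log2 fold change was 0.39 ± 0.18 (SE). The other ATPases measured, Psmc3 and Psmc4, had log2 fold changes of 0.17 and 0.22.

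Psmd1, the largest subunit of the regulatory particle's base, measured 10.65, 10.76, 10.42 and 10.53 in NO-naproxen livers and 10.26, 10.23, 10.24 and 10.22 in control livers. The groups did not overlap, and the control arrays were close to one another, with an SD of 0.017. Its log2 fold change was 0.35 ± 0.15 (SE, adjusted p = 0.468). The lid subunit Psmd3 measured 9.43, 9.64, 9.33 and 9.17 against 9.16, 9.07, 8.84 and 9.02 in controls, with a log2 fold change of 0.37 ± 0.16 (SE). NO-naproxen and control arrays did not overlap for 3 of the 34 members, Psmd1, Psmd3 and the lid subunit Psmd12, with NO-naproxen higher, against 2% of all probe sets and 3.22% of those in the level range. None was lower without overlap, against 1.35% and 0.518%. The other Psmd genes had log2 fold changes from 0.096 for Psmd6, a lid subunit, to 0.30 for Psmd4, a ubiquitin receptor.

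Of the core, Psmb4, a beta subunit without a catalytic site, passed an unadjusted p of 0.05. It measured 9.98, 10.38, 10.00 and 10.52 with NO-naproxen against 10.25, 9.66, 9.59 and 9.53 in controls. Control replicate 1 lay above 2 of the NO-naproxen arrays. The log2 fold change was 0.46 ± 0.19 (SE, adjusted p = 0.468), and 0.63 without that control array. The alpha subunits had log2 fold changes between -0.013 for Psma2 and 0.47 for Psma6, and the beta subunits between 0.034 for Psmb3 and that of Psmb4.

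**Figure D1:**
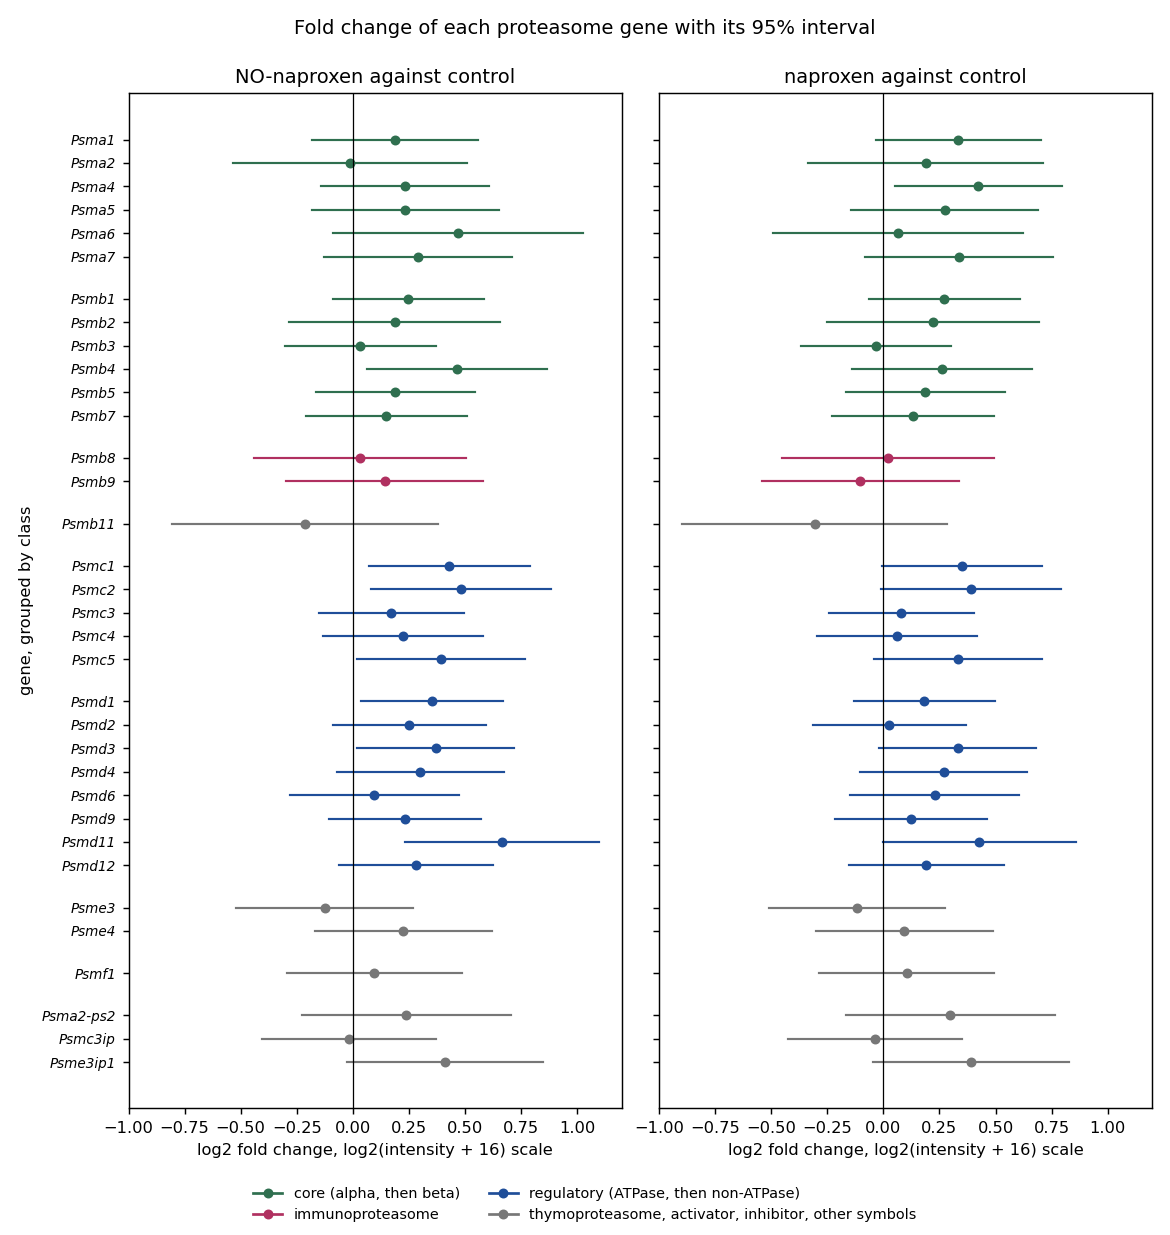
Log2 fold change (x axis, log2 of intensity plus 16) of each of the 34 members, grouped by class down the page, for NO-naproxen against control on the left and naproxen against control on the right. Points are limma estimates and lines 95% intervals. All 13 regulatory genes lie above 0 in both panels (11 and 10 after quantile normalization, not drawn), and most intervals of the members include 0.

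**Figure D2:**
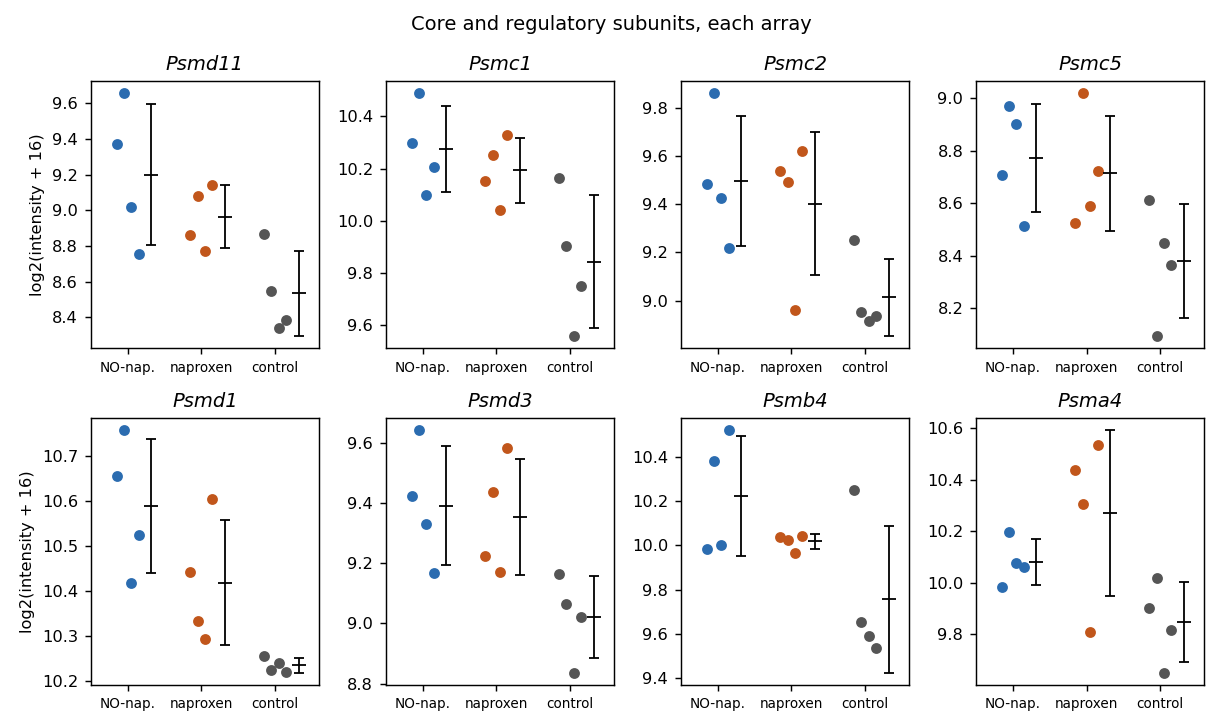
Log2 of intensity plus 16 in each liver for 8 core and regulatory subunits, with NO-naproxen (NO-nap.) left, naproxen in the middle and control right. Points are single arrays, and bars beside them show the mean and SD of 4 arrays. For Psmd1 and Psmd3 no drug array overlaps a control array, while for the other 6 genes at least 1 does.

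The second comparison is that of naproxen with control. The 12 core genes had a median log2 fold change of 0.24, with 11 above 0, and the 13 regulatory genes a median of 0.23, with all 13 above 0 (10 of 13 after quantile normalization). Psmb8 and Psmb9 had values of 0.022 and -0.10. Here too no member passed after adjustment in limma, against 0% of all probe sets, with the smallest adjusted p at 0.383. At an unadjusted p under 0.05, 1 of 34 members was higher (2.94%), against 3.16% of all probe sets and 4.33% of those in the same level range, and none was lower, against 9.5% and 1.34%. That count depended on single arrays. Without naproxen replicate 3 it was 10, against 4.03% of all probe sets and 6.78% of the level range. Without control replicate 1 it was 5, against 3.11% and 5.18%, and without NO-naproxen replicate 2 it was 3, against 3.56% and 4.88%. It was 2 without NO-naproxen replicate 4 (3.08% and 4.36%) or control replicate 3 (2.04% and 2.51%). It stayed at 1 without control replicate 2, against 5.64% and 10.1%. It was 0 without naproxen replicate 1, 2 or 4 or control replicate 4. There all probe sets had 2.08%, 2.86%, 2.41% and 1.73%, and the level range 2.53%, 3.57%, 3.22% and 2.04%. With each array centred on its median, which moved the median of all probe sets from -0.034 to 0.081, the count was 12 (35.3%), against 7.45% of all probe sets and 12.1% of the level range.

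The member past that p was Psma4, an alpha subunit of the core's outer ring. It measured 10.44, 10.31, 9.81 and 10.53 with naproxen against 9.90, 10.02, 9.65 and 9.82 in controls. Naproxen replicate 3 lay within the control range and the other naproxen arrays above it. The log2 fold change was 0.42 ± 0.18 (SE, adjusted p = 0.383), or 1.34-fold. With NO-naproxen the same gene measured 9.98, 10.20, 10.08 and 10.06, a log2 fold change of 0.23 ± 0.18 (SE) against control.

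No regulatory gene had an unadjusted p under 0.05 with naproxen. Of those nearest to it, Psmd11 had a log2 fold change of 0.43 ± 0.20, Psmc2 of 0.39 ± 0.19 and Psmc1 of 0.35 ± 0.17 (SE), with unadjusted limma p of 0.0518, 0.0562 and 0.0542 and adjusted p of 0.395, 0.398 and 0.396. Naproxen and control arrays did not overlap for 2 members, Psmd1 and Psmd3, with naproxen higher, against 2.09% of all probe sets and 3.24% of those in the level range. None was lower without overlap, against 2.4% and 0.599%. Psmd3 measured 9.22, 9.44, 9.17 and 9.58 with naproxen, and its log2 fold change was 0.33 ± 0.16 (SE). Psmd1 measured 10.44, 10.33, 10.29 and 10.60, a log2 fold change of 0.18 ± 0.15 (SE). The scaffold subunit Psmd2 and the ATPases Psmc3 and Psmc4 had smaller values, 0.025, 0.079 and 0.062. No member met the 1.5-fold criterion in this comparison, which 0.875% of all probe sets and 1.25% of those in the level range met on the higher side, and 4.97% and 0.708% on the lower side.

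Fold changes of the core and regulatory genes were also read against signal level. Of the 25, 24 (96%) had a log2 fold change above 0 with NO-naproxen and 24 with naproxen, against 82.3% and 75.7% of probe sets in the same level range and 50.1% and 45.9% of all probe sets. After quantile normalization 11 regulatory and 10 core genes were above 0 with NO-naproxen, and 10 and 11 with naproxen. The regulatory median was 0.30 for NO-naproxen and 0.23 for naproxen and the core median 0.21 and 0.24, against 0.20 and 0.13 in the same level range and 0.00044 and -0.034 over all probe sets. The core median for NO-naproxen was thus close to that of the level range. With the spread of the arrays as a covariate the medians in that level range were 0.053 and -0.014. Those of the regulatory genes were then 0.29 and 0.20, and those of the core genes 0.32 and 0.34. After quantile normalization the regulatory medians were 0.17 and 0.14 and the core medians 0.046 and 0.16, against 0.034 and 0.039 in the level range. With median centring the regulatory medians were 0.37 and 0.34 and the core medians 0.28 and 0.36, against 0.27 and 0.24. These are descriptions of lists, which were not tested.

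**Figure D3:**
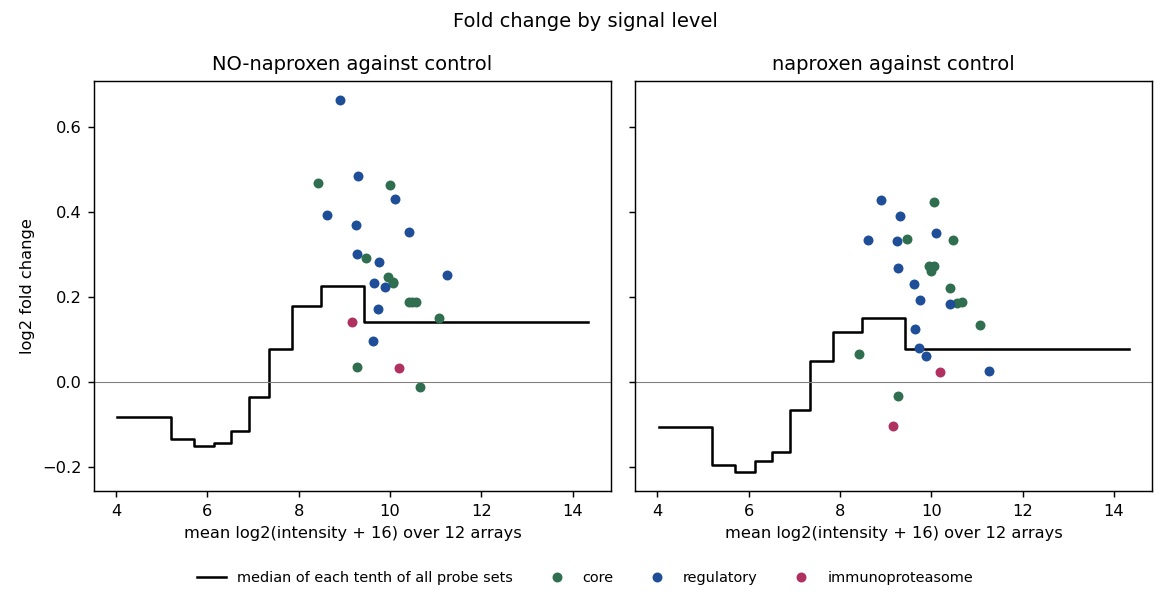
Log2 fold change against mean log2 of intensity plus 16 over 12 arrays, for NO-naproxen against control on the left and naproxen against control on the right. Green points are the 12 core, blue the 13 regulatory and red the 2 immunoproteasome genes, and the black step line is the median of each of 10 bins of all probe sets by mean level. The line lies below 0 for dim and above 0 for bright probe sets, and most green and blue points lie above the line.

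Averaged over the 13 regulatory genes, the log2 level was 9.76, 10.04, 9.75 and 9.71 in the NO-naproxen livers, 9.71, 9.81, 9.51 and 9.85 in the naproxen livers, and 9.63, 9.43, 9.44 and 9.46 in the control livers. Every NO-naproxen array lay above every control array, while naproxen replicate 3 lay below control replicate 1. For the 12 core genes the averages were 9.93, 10.20, 10.20 and 10.10 with NO-naproxen, 10.09, 10.21, 9.85 and 10.28 with naproxen, and 10.02, 9.72, 9.97 and 9.84 in controls, and both drug groups overlapped the controls. The array with the widest spread, NO-naproxen replicate 2, with an interquartile range of 2.62, was the highest of 12 for 11 of the 25 core and regulatory genes. Naproxen replicate 3 was the lowest of 12 for 5 genes, and control replicates 2, 3 and 4 for 6, 5 and 6. Control replicate 2, with a spread of 2.37 within the range of the drug arrays, had the lowest average of the 12 arrays for both classes. Array medians differed too. Naproxen replicate 3 had the lowest array median of the 12 arrays, at 6.73. Control replicate 2 had one of 6.83, and control replicates 3 and 4 had 7.07 and 7.05. The part of array spread in the class averages was not tested beyond the covariate, nor that of array medians beyond median centring.

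**Figure D4:**
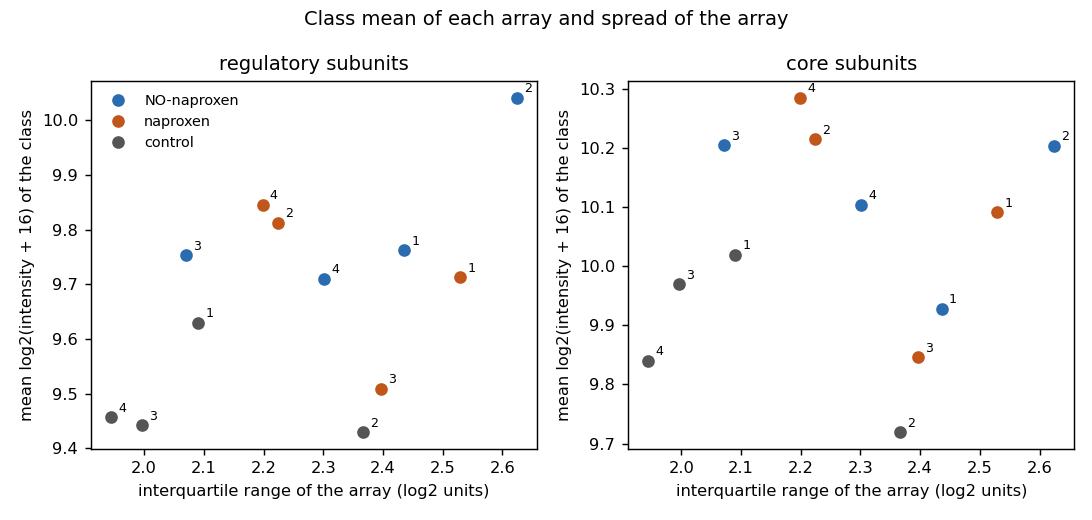
Mean log2 of intensity plus 16 of the 13 regulatory genes (left) and the 12 core genes (right) on each array, against the interquartile range of that array in log2 units. Colours mark the diets, and digits the replicate numbers. NO-naproxen replicate 2 has the widest spread and the highest regulatory average, and control replicate 2 the lowest average in both panels.

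For the genes of the immunoproteasome and the activators, no difference exceeded the spread between rats. Psmb8, which replaces the chymotrypsin-like subunit Psmb5, measured 9.81, 10.36, 10.43 and 10.21 with NO-naproxen, 10.16, 10.32, 9.72 and 10.56 with naproxen, and 10.49, 9.80, 10.47 and 9.91 in controls. All 3 groups covered about the same range. The 95% interval of its log2 fold change against control was -0.44 to 0.50 for NO-naproxen and -0.45 to 0.49 for naproxen, and differences within those bounds were not detectable.

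Psmb9, which replaces Psmb6, measured 9.05, 9.52, 9.28 and 9.33 with NO-naproxen, 9.45, 9.03, 8.54 and 9.18 with naproxen, and 9.51, 9.02, 9.21 and 8.87 in controls. Naproxen replicate 3 was the lowest of the 12 arrays, and the groups overlapped. The intervals against control were -0.30 to 0.58 for NO-naproxen and -0.54 to 0.34 for naproxen.

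Of the constitutive counterparts, Psmb5 measured 10.43, 10.79, 10.50 and 10.77 with NO-naproxen, 10.49, 10.89, 10.51 and 10.60 with naproxen, and 10.69, 10.31, 10.45 and 10.28 in controls. Psmb7, the trypsin-like subunit that Psmb10 replaces, measured 10.99, 11.12, 11.18 and 11.23 with NO-naproxen, 10.96, 11.31, 10.82 and 11.36 with naproxen, and 11.01, 10.73, 11.02 and 11.15 in controls. For both genes the 3 diets overlapped, and the log2 fold changes against control were 0.19 and 0.15 with NO-naproxen and 0.19 and 0.13 with naproxen. Neither passed limma's test, with adjusted p of 0.588 and 0.673 for NO-naproxen and 0.612 and 0.728 for naproxen against control.

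Psme3, the nuclear activator of the core, measured 10.51, 10.58, 10.73 and 10.18 with NO-naproxen, 10.62, 10.55, 10.30 and 10.56 with naproxen, and 10.38, 10.43, 11.06 and 10.63 in controls. The highest array was a control, and the log2 fold changes against control were -0.13 for NO-naproxen and -0.12 for naproxen. Psme4, an activator known for its role in chromatin and DNA repair, measured 10.38, 10.50, 10.46 and 10.20 with NO-naproxen, 10.18, 10.38, 9.81 and 10.64 with naproxen, and 10.11, 9.96, 10.40 and 10.17 in controls, with log2 fold changes of 0.23 and 0.092. The inhibitor Psmf1 had values of 0.096 and 0.10, Psme3ip1 of 0.41 and 0.39, Psmc3ip of -0.016 and -0.038, and the dim pair Psmb11 of -0.21 and -0.31 and Psma2-ps2 of 0.24 and 0.30.

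**Figure D5:**
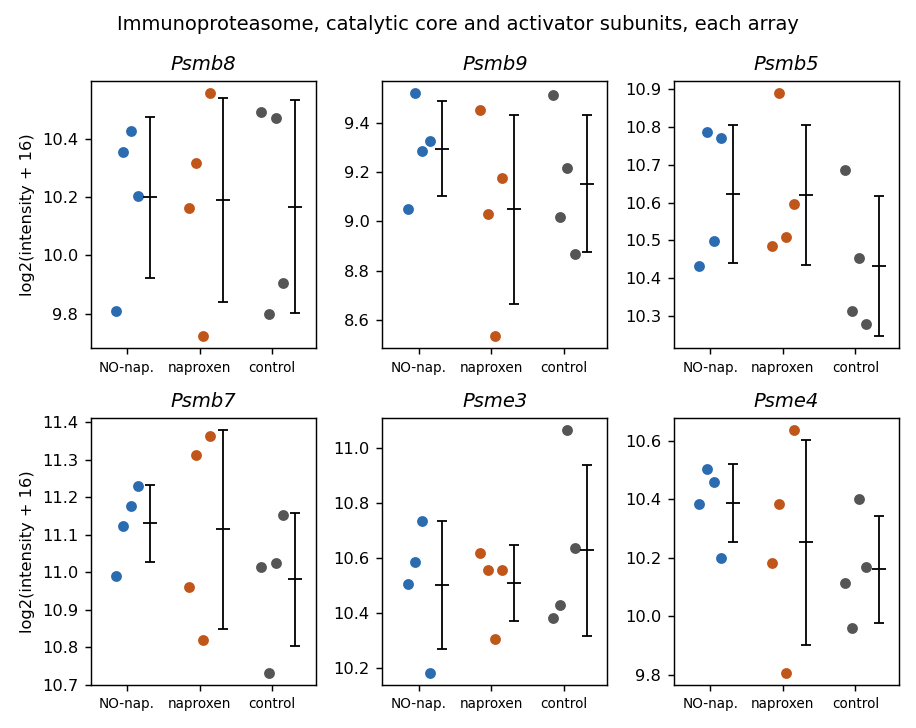
Log2 of intensity plus 16 in each liver for 2 immunoproteasome genes, 2 catalytic genes of the constitutive core and 2 activators, with NO-naproxen (NO-nap.) left, naproxen in the middle and control right. Points are single arrays, and bars beside them show the mean and SD of 4 arrays. The 3 diets overlap for all 6 genes.

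Psmb8 and Psmb9 lie beside the peptide transporter gene Tap1 on chromosome 20 in RefSeq's annotation. Of 7 measured genes of MHC class I peptide supply, 5 had a log2 fold change above 0 with NO-naproxen and 3 with naproxen, with medians of 0.20 and -0.00076, and none had an unadjusted p under 0.05 in either. Of 15 interferon signalling genes, 13 were above 0 in each comparison, with medians of 0.29 and 0.28. The kinase Jak2, at 0.52 ± 0.23 (SE), was the 1 with an unadjusted p under 0.05, with NO-naproxen. Beside these counts and the lists below, 82.3% and 75.7% of the level range and 50.1% and 45.9% of all probe sets were above 0. The medians of the level range for NO-naproxen and naproxen were 0.20 and 0.13. At an unadjusted p under 0.05, 10.1% and 4.33% of the level range and 5.49% and 3.16% of all probe sets were higher. Lower at that p were 4.86% and 9.5% of all probe sets. Some listed genes were dimmer than the level range, and the lists were not tested. Among 14 Kupffer cell and macrophage markers, a cell type known for immunoproteasome expression, 12 were above 0 with NO-naproxen and 13 with naproxen, with medians of 0.33 and 0.21. At an unadjusted p under 0.05, 3 were higher with NO-naproxen, Ptprc, Vsig4 and Csf1r, and 1 with naproxen, Vsig4. Their summed intensity per array ranged from 7475 to 12191 with NO-naproxen, 7827 to 10261 with naproxen and 7765 to 10304 in controls. Ptprc, the pan-leukocyte marker, had a log2 fold change of 0.67 ± 0.27 with NO-naproxen and 0.41 ± 0.27 with naproxen (SE, adjusted p = 0.468 and 0.491). For 8 T and NK cell markers the sums were 875 to 1278 with NO-naproxen, 872 to 1077 with naproxen and 873 to 981 in controls, and 5 of the 8 were above the olfactory receptor range, with Cd3d within it. The brightest was Cd4, with means of 8.56, 8.58 and 8.12 in these groups. The T cell genes Cd3d, Cd2 and Cd8a did not follow it. Their means in the same order were 5.45, 5.47 and 5.49 for Cd3d, 6.23, 6.18 and 6.44 for Cd2, and 6.69, 6.53 and 6.90 for Cd8a. Which cells gave the Cd4 signal was not tested. Of the 8, 5 were above 0 with NO-naproxen and 4 with naproxen. For 3 B cell markers the sums were 1732 to 2680 with NO-naproxen, 1881 to 2760 with naproxen and 2027 to 2361 in controls, with Ms4a1 and Cd79b in the olfactory receptor range. These sums were therefore mostly Cd74, with means of 11.04, 11.04 and 10.99. Hepatocyte marker sums were 77705 to 95465 with NO-naproxen, 78841 to 87660 with naproxen and 78703 to 94324 in controls. For 5 endothelial markers, all above 0 in both comparisons with medians of 0.29 for NO-naproxen and 0.40 for naproxen, the sums were 1543 to 2133 with NO-naproxen, 1771 to 2120 with naproxen and 1219 to 1755 in controls. Of these 0 and 3 (Oit3, Clec4g and Flt4) had an unadjusted p under 0.05, and the naproxen median was above those of the core and regulatory genes. For 8 stellate cell markers the sums were 3216 to 4225 with NO-naproxen, 3165 to 4100 with naproxen and 2533 to 3820 in controls. Of these, 6 were above 0 with NO-naproxen and 7 with naproxen, and 1 (Rgs5) and 2 (Rgs5 and Dcn) had an unadjusted p under 0.05. For 3 cholangiocyte markers the sums were 165 to 200 with NO-naproxen, 176 to 208 with naproxen and 149 to 190 in controls, with 0 and 1 (Epcam) higher at that p. Of the 3, 2 were above 0 with NO-naproxen and 1 with naproxen, with medians of 0.17 and -0.037. Only 1 was above the olfactory receptor range. Epcam, with means of 6.25 with NO-naproxen, 6.40 with naproxen and 5.93 in controls, was within it. Of 10 hepatocyte markers, 5 were above 0 with NO-naproxen and 4 with naproxen, with medians of 0.0032 and -0.059. These markers were brighter than the level range. Among them 1, Tat, was lower at an unadjusted p under 0.05 with naproxen and 0 with NO-naproxen. For T, NK and B cell markers the count at that p was 0 in both. No listed gene passed the adjusted threshold in limma. The part of these cells in the proteasome values was not tested.

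Genes of proteasome partners were listed as well. Of 8 measured cofactors and ubiquitin receptors, 7 had a log2 fold change above 0 with NO-naproxen and 6 with naproxen, with medians of 0.25 and 0.12 and none past the adjusted threshold. At an unadjusted p under 0.05, 1 was higher with NO-naproxen, Txnl1, and 1 with naproxen, Sem1, whose value with naproxen was above that of every proteasome member. The regulatory particle component Sem1 had log2 fold changes of 0.38 ± 0.21 and 0.51 ± 0.21, the proteasome-bound thioredoxin Txnl1 of 0.48 ± 0.19 and 0.26 ± 0.19, the deubiquitinase Uchl5 of 0.47 ± 0.25 and 0.45 ± 0.25, and the deubiquitinase Usp14 of 0.28 ± 0.19 and 0.17 ± 0.19 (SE) for NO-naproxen and naproxen. Of 12 regulators of proteasome genes, 11 and 12 were above 0, with medians of 0.28 and 0.21 and none with an unadjusted p under 0.05. In that list the CCAAT-binding factors Nfya and Nfyc had values of 0.35 and 0.50 with NO-naproxen and 0.31 and 0.40 with naproxen. The SD of Nfyc was 0.56 with NO-naproxen and 0.39 in controls. Nfe2l2, with means of 10.67 with NO-naproxen, 10.83 with naproxen and 10.74 in controls, was the gene below 0 with NO-naproxen. Whether any of these factors had a part in the proteasome values was not tested. Nfe2l1 was not analysed here. Of 5 genes of ubiquitin activation and handling, 4 were above 0 in each comparison, with medians of 0.19 and 0.043. The ubiquitin-activating enzyme Uba1 had values of 0.28 ± 0.15 and 0.16 ± 0.15 (SE). Beside the counts of these lists, 82.3% and 75.7% of the level range and 50.1% and 45.9% of all probe sets were above 0. The level range had medians of 0.20 and 0.13. At an unadjusted p under 0.05, 10.1% and 4.33% of it and 5.49% and 3.16% of all probe sets were higher.

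The diet with NO-naproxen was also set against that with naproxen, at different doses. No member passed limma's test after adjustment, against 0% of all probe sets, and none had an unadjusted p under 0.05, against 1.28% of all probe sets on the higher and 0.644% on the lower side, and 0.218% and 0.163% in the level range. None met the 1.5-fold criterion, against 0.427% higher and 0.144% lower of all and 0.0817% and 0.0272% in the level range. No member was without overlap, against 0.644% higher and 0.525% lower of all and 0.191% and 0.245% in the level range. Of the members 23 (67.6%) were above 0, against 64.1% of all probe sets and 68.8% in the level range. The median log2 fold change was 0.092 over the regulatory genes, 12 of 13 above 0, and -0.029 over the core genes, 5 of 12 above 0. The median over all probe sets was 0.062. The largest value belonged to Psma6, an alpha subunit, at 0.40 ± 0.26 (SE), which measured 8.59, 8.69, 8.74 and 8.81 with NO-naproxen against 8.45, 7.39, 8.63 and 8.76 with naproxen. Naproxen replicate 2 lay far below the other naproxen arrays, and without it the log2 fold change of Psma6 was 0.096 ± 0.21 (SE). Psmd11 had a log2 fold change of 0.24 with a 95% interval of -0.20 to 0.67, Psmb9 of 0.25 with -0.19 to 0.69, and Psmb8 of 0.0093 with -0.46 to 0.48. Differences of these sizes between the drugs were therefore not detectable with 4 arrays per diet.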

How the data were processed

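One array was hybridised per rat liver, after ribosomal RNA removal and biotin labelling on a whole-transcript platform, per the labels' protocols. The authors deposited probe set intensities on a linear scale. The submitters' processing notes name Affymetrix Expression Console 1.1.1 and build rn4. Summary method and normalization were not given in the sources used here, and array medians lay between 89.8 and 118. A constant of 16 was added before log2, so fold changes of dim probe sets are understated. Precision is limited by having 4 arrays per diet: the median SE of a member's log2 fold change was 0.18.

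Sample titles gave the groups and replicate numbers. A single fit held the 12 arrays, using limma 3.58.1 (lmFit, eBayes, 2-sided, R 4.3.3) with the diets as groups, and p-values were adjusted by Benjamini-Hochberg over 19418 probe sets and called under 0.05. The study's criterion of 1.5-fold with an unadjusted p under 0.05 was applied to this fit. The members, gene lists, tests and alternatives were chosen with earlier results of these data known. Values of every array are given for Psmb5, Psmb7, the immunoproteasome and activator genes, and for members under an unadjusted p of 0.05, up to 8 per comparison with control; up to 4 genes of a list are named by smallest p. Psmd12, Psmd2 and other members named for their class were chosen after their values were seen. Of 142 listed genes that are not members, 98 were measured. The fit was tested on simulated data. Alternatives changed the added constant, normalization, filter, variance model, array weights, spread covariate, replicate block and arrays included. Figures used matplotlib 3.10.9 in Python 3.11.15.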

Additional observations from a re-analysis of the deposited data

Results flagged for a closer look

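In each group of 4 arrays, the highest or lowest value of a member was compared with the rest by its gap to the nearest array over the range of the group. Of 102 such groups 4 passed Dixon's critical value at the 95% level, and chance alone marks about 1 in 20. Psmb4 measured 10.25 in control replicate 1, with the next control at 9.66. Psmc2 measured 9.25 in control replicate 1, with the next control at 8.95. Psmf1 measured 9.16 in naproxen replicate 3, with the next naproxen array at 9.81. The pseudogene Psma2-ps2, close to the lowest possible value of the scale, measured 4.25 in control replicate 2, with the next control at 4.03. Without control replicate 1 the log2 fold change of NO-naproxen against control was 0.63 for Psmb4 and 0.56 for Psmc2 (limma, adjusted p = 0.538 for both).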

How the results depend on the processing

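No member passed the adjusted threshold of limma in any of the 24 alternatives of any comparison. The medians of the 13 regulatory genes ranged from 0.17 to 0.37 for NO-naproxen and 0.14 to 0.36 for naproxen against control. Between the drugs they ranged from 0.0088 to 0.14. Several alternatives cannot change a fold change by construction, so they say nothing on the sign of these medians. These were the dim filter, the trended and robust spread, only the compared groups, the replicate block, and leaving out arrays of the diet not compared. Averaging probe sets repeated the main fit, as each symbol had 1 probe set. With single arrays left out, the numbers of members higher at an unadjusted p under 0.05 ranged from 1 to 8 for NO-naproxen and 0 to 10 for naproxen against control. The share of all probe sets moved as well, from 1.63% to 9.99% for NO-naproxen and from 1.73% to 5.64% for naproxen. That of the level range moved from 2.32% to 21% and from 2.04% to 10.1%. Members lower at that p numbered 0 to 1 in each of the 3 comparisons, and the share of all probe sets lower was not counted under these settings. For NO-naproxen against control the higher count of 7 changed with the setting, given here with the shares of all probe sets and of the level range. It became 1 after quantile normalization (5.57% and 3.65%), 3 with the array spread as a covariate (2.32% and 1.77%) and 4 with the replicate block (6.28% and 12.3%). It was 6 with array weights (14% and 28.9%) and 0 without the 2 arrays of narrowest spread (1.26% and 0.926%). It rose to 8 with a constant of 64 (6.77% and 14.9%), with median centring (8.41% and 15.4%) and with only the compared groups (4.46% and 7.36%). After quantile normalization the median was 0.046 over the core genes and 0.061 over all members. For naproxen against control the higher count of 1 is followed with the same 2 shares. It became 8 with a constant of 64 (3.86% and 7.52%), 2 after quantile normalization (6.1% and 3.16%) and 12 with median centring (7.45% and 12.1%). It was 2 without the dimmest 30% of probe sets (4.11% and 4.9%) and 5 with a trended and robust spread (3.31% and 5.67%). With only the compared groups it was 2 (3.27% and 4.52%), and with array weights 7 (5.18% and 8.31%). With the array spread as a covariate it was 4 (2.25% and 2.45%), and with the replicate block 2 (3.3% and 4.71%). A count of 1 is 2.94% of 34 members, 2 is 5.88%, 4 is 11.8%, 6 is 17.6% and 8 is 23.5%. The cause of these differences was not tested. The labels do not say whether a replicate number marks a litter, day or batch. Deviations of same-numbered samples correlated at r from -0.38 to 0.33 for naproxen with control and from 0.038 to 0.48 for NO-naproxen with control. For NO-naproxen with naproxen r ranged from -0.37 to 0.29. The block changed no adjusted call, and 0, 1 and 1 of 4 samples correlated best with their own number in the comparisons of naproxen with control, NO-naproxen with control and NO-naproxen with naproxen.

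Small values changed sign. For NO-naproxen against control, Psmb8 was -0.14 after quantile normalization and -0.20 with array weights, Psmb9 -0.047 and -0.0020 under the same settings, and Psme3 0.096 without the 2 arrays of narrowest spread. With single arrays left out, Psmb8 ranged from -0.091 to 0.16 and Psme3 from -0.21 to 0.020. For naproxen against control, Psmb8 was -0.064 after quantile normalization and -0.0019 with array weights, Psmb9 0.011 with median centring and Psme3 0.10 without the 2 arrays of narrowest spread. With single arrays left out, Psmb8 ranged from -0.10 to 0.18, Psmb9 from -0.24 to 0.066, Psme3 from -0.20 to 0.026 and Psme4 from -0.036 to 0.24. For NO-naproxen against naproxen, Psmb5, Psmb7 and Psmb8 were -0.079, -0.035 and -0.078 after quantile normalization, -0.044, -0.030 and -0.037 with median centring and -0.088, -0.095 and -0.20 with array weights, and Psme3 was 0.0015 with the array spread as a covariate. With single arrays left out, they ranged from -0.052 to 0.092 for Psmb5, -0.082 to 0.099 for Psmb7, -0.15 to 0.14 for Psmb8, -0.083 to 0.10 for Psme3 and -0.015 to 0.26 for Psme4. None of these passed the adjusted threshold. All 32 members above the olfactory receptor range also passed the filter on dim probe sets. Signal near background limits what can be said of Psmb11 and Psma2-ps2.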
